A study of Mus musculus with 19 samples.

Results

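The epidermis and dermis of embryonic mouse skin were compared on 8 of the 19 arrays of the series, 4 arrays of each layer, taken by their labels alone. All 8 samples were back skin of C57BL/6 mice at embryonic day 16 (E16), and each was RNA pooled from several embryos, so that a replicate is a pool and not an animal. Skin was left overnight in cold dispase, a protease that loosens the layers at the basement membrane, and the layers were then parted by hand under a microscope, so both groups carry this treatment. The labels name no transgene or drug. The other 11 arrays are of the urogenital sinus at the same age, from the same embryos, and only its mesenchyme (UGM, 5 arrays), parted with trypsin, is used below, as a tissue that holds no skin.

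The epidermis is a stratified epithelium. Its basal keratinocytes divide on a basement membrane, and their daughters move up through the spinous and granular layers, where they change their keratins, make desmosomes, tight junctions and barrier lipids, and end as cornified cells. In the embryo a transient outer cell layer, the periderm, lies on top. The dermis below is a connective tissue of fibroblasts in a collagen and elastic matrix, and it also holds vessels, nerves, muscle, mast cells and macrophages. Signals pass both ways between the layers, and hair placodes in the epidermis form with condensates of dermal cells beneath them.

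Values are log2 intensity of a probe set, and where a gene has several probe sets, the one with the highest mean over the 19 arrays stands for it. A log2 fold change is epidermis minus dermis and is given with its standard error (SE), n = 4 arrays in each layer. A probe set or gene is called at an adjusted p under 0.01 (limma, Benjamini-Hochberg over all probe sets tested) and a change over 2-fold. Of 41549 probe sets tested, 2524 were called higher in epidermis (6.07%) and 3157 higher in dermis (7.6%). Of 17360 genes, 1014 were called higher in epidermis (5.84%) and 1927 higher in dermis (11.1%). In 16% of genes all 4 epidermis arrays lay above all 4 dermis arrays, and in 21.8% all lay below. The median log2 fold change over all genes was 0.01. Changes over 8-fold were found for 43 of the genes called higher in epidermis and for 275 of those called higher in dermis. These shares are the background against which the counts of each gene list are given. Lists are counted over their measured members. As tissue was read in bulk, fewer cells of a type and less RNA per cell cannot be told apart.

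The replicate 1 arrays stood apart. Array medians were even, from 75.9 to 79.3 on the intensity scale, and the first principal component, with 77.9% of the variance, separated the layers. The second, with 11.4%, held epidermis 1 at 72.02 and dermis 1 at 30.99, with the other 6 arrays between -23.77 and -10.80. Epidermis 1 and dermis 1 correlated at r = 0.960 over probe sets, the highest value between the layers. Among genes called higher in epidermis, 85.6% had their highest dermis value in dermis 1, against 0.888% in dermis 2. Among genes called higher in dermis, 56.6% had their highest epidermis value in epidermis 1, against 9.44% in epidermis 4. Values are therefore given for each array, in the order of replicates 1 to 4.

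**Figure D1:**
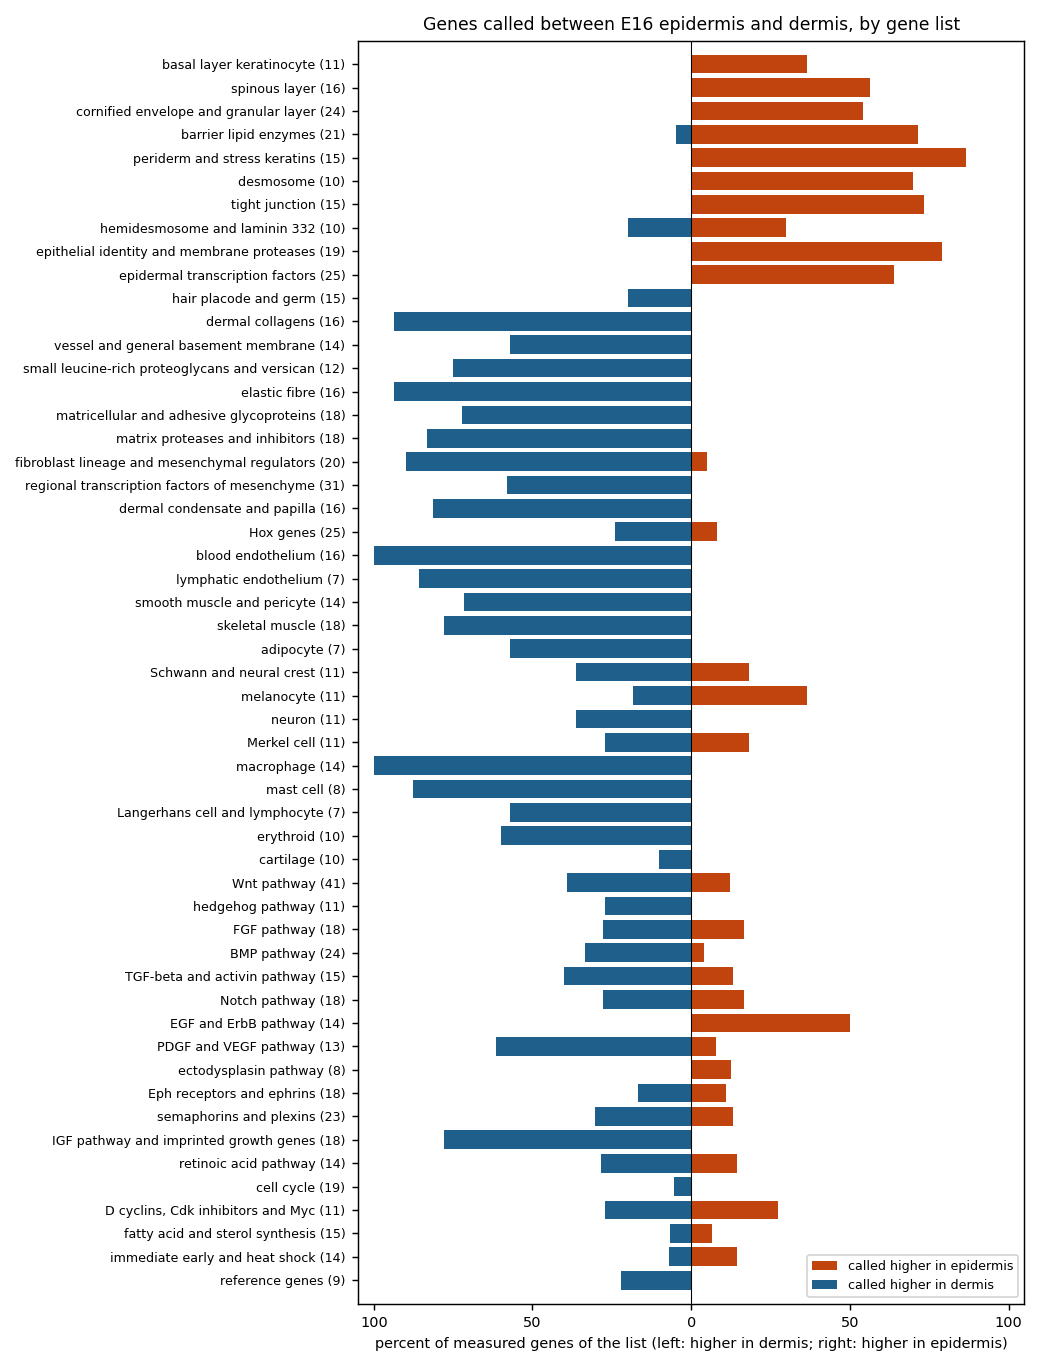
Percent of the measured genes of each list (number in brackets) that were called higher in epidermis (right, red) or higher in dermis (left, blue), on a scale of percent. Lists of epidermal layers and junctions lie to the right, with 13 of 15 periderm and stress keratins called, and lists of dermal matrix, vessels and immune cells lie to the left, with all 16 blood endothelium genes called.

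The layers matched their labels on the dermal markers, with a reservation about the epidermal ones. None of the defining epidermal markers Krt5, Krt14, Krt1, Krt10 and Lor, the last given below, was called. The dermal markers were clear. Pdgfra, the PDGF receptor of fibroblasts, read 9.33, 8.87, 9.92 and 7.88 in epidermis and 11.84, 12.60, 12.60 and 12.44 in dermis (log2 fold change -3.37 ± 0.37, adjusted p = 1.01e-04). Twist2, a transcription factor of dermal mesenchyme, read 10.29, 9.24, 9.73 and 7.90 in epidermis and 12.42, 12.80, 12.78 and 12.55 in dermis (-3.35 ± 0.41, adjusted p = 1.92e-04). In both genes every dermis array lay above every epidermis array, and epidermis 4 was the lowest. Col1a1 and Col3a1, chains of the fibrillar collagens of skin, were also higher in dermis (-2.01 ± 0.25 and -1.44 ± 0.18). The defining keratins of the epidermis were bright in both layers. Krt5, a keratin of basal cells, read 13.90, 13.83, 13.62 and 14.07 in epidermis and 13.76, 12.91, 13.19 and 13.27 in dermis (0.57 ± 0.18, adjusted p = 0.0317). Dermis 1 lay within the range of the epidermis arrays, and Krt5 was not called. Its partner Krt14 (0.69 ± 0.19), and Krt1 (1.09 ± 0.36) and Krt10 (0.66 ± 0.22), the keratins that replace them in the spinous layer, were not called either. Without dermis 1, Krt1 was called at 1.398. In UGM these 4 keratins averaged 7.30, 5.36, 5.82 and 8.82, far below their level in every dermis array. Where the keratin RNA of the dermis arrays comes from was not tested.

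**Figure D2:**
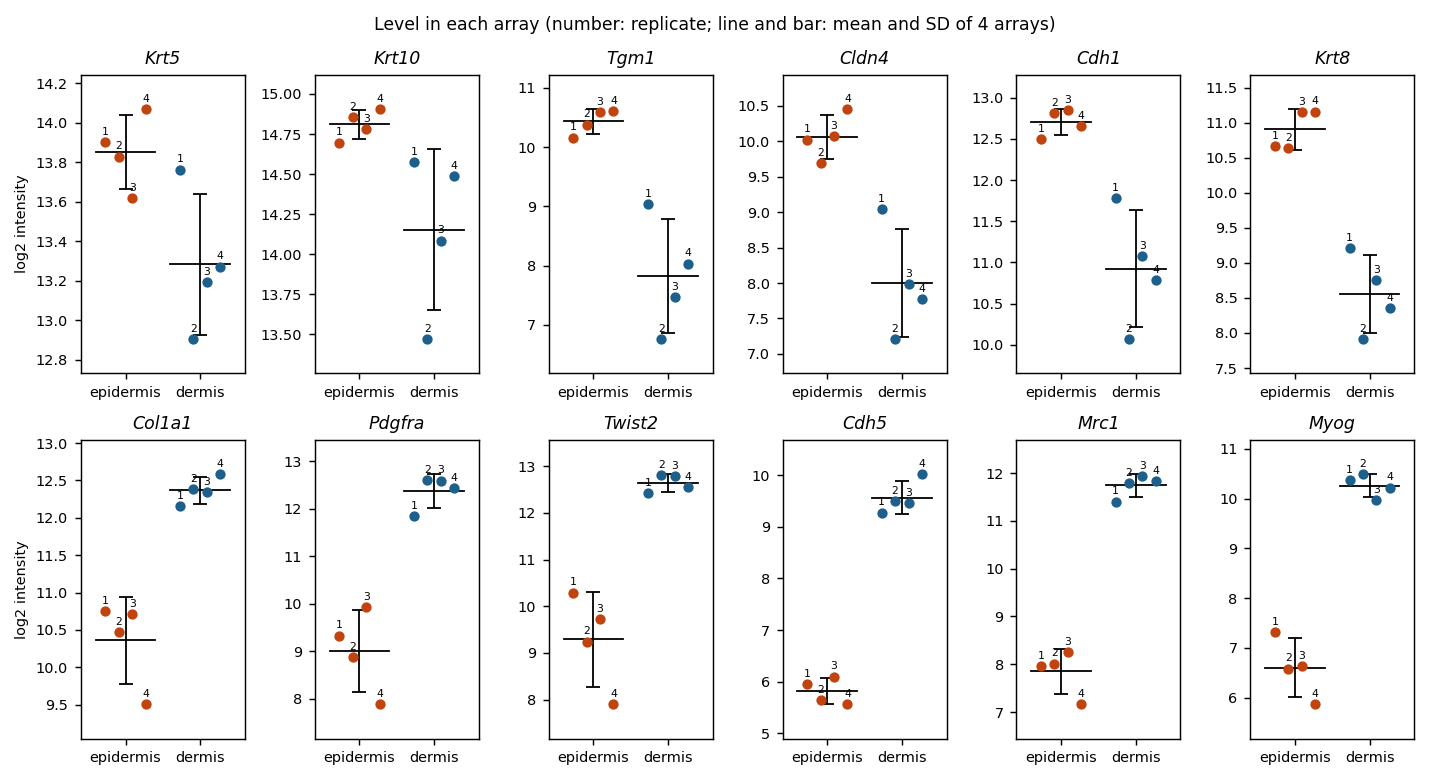
Log2 intensity of 12 genes in each array, with epidermis in red and dermis in blue; each point is 1 array with its replicate number, the line is the mean of 4 arrays and the bar its SD. Krt5 overlaps between the layers, Krt10 comes close through dermis 1 and dermis 4, and the dermal genes of the lower row are well apart.

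Among the genes of the basal layer, 4 of 11 were called higher in epidermis, and the list's median log2 fold change was 0.70. Krt15, a keratin of basal progenitors, read 13.42, 13.48, 13.40 and 13.80 in epidermis and 12.90, 11.996, 12.27 and 12.16 in dermis (1.19 ± 0.19, adjusted p = 8.79e-04), with no overlap and with dermis 1 closest to the epidermis. Sox6, a transcription factor, read 8.82, 9.80, 9.57 and 9.83 in epidermis and 8.43, 7.90, 8.49 and 8.06 in dermis (1.28 ± 0.23, adjusted p = 0.00177). Trp63, the regulator of stratified epithelia (1.22 ± 0.25), and Col17a1, a collagen of hemidesmosomes (1.10 ± 0.23), were called, but Trp63 lost its call without epidermis 2 or 3, or dermis 2 or 4, and Col17a1 without epidermis 2 or 4, or dermis 2, 3 or 4. The list gave 2 calls without epidermis 2, without dermis 2 and without dermis 4. The integrins Itga3, Itga6 and Itgb4 and the cadherin Cdh3, which hold basal cells to their base and to each other, were not called, with log2 fold changes of 0.70, -0.72, 0.85 and 0.20, except that Itgb4 was called without epidermis 3.

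Genes of the upper layers differed more. Of 16 spinous layer genes 9 were called higher in epidermis (median 2.06), and of 24 genes of the cornified envelope and granular layer 13 were (1.85). Ppl, periplakin, an envelope protein that ties desmosomes to keratin, read 12.10, 12.75, 12.88 and 13.24 in epidermis and 11.16, 9.002, 10.29 and 10.60 in dermis (2.48 ± 0.41, adjusted p = 0.0011). Serpinb2, a protease inhibitor of differentiating keratinocytes, read 9.86, 10.71, 11.05 and 10.998 in epidermis and 8.44, 5.57, 8.03 and 7.85 in dermis (3.18 ± 0.56, adjusted p = 0.00149). Tgm1, the transglutaminase that cross-links the envelope, read 10.16, 10.38, 10.59 and 10.61 in epidermis and 9.04, 6.76, 7.47 and 8.03 in dermis (2.60 ± 0.39, adjusted p = 6.43e-04). In all 3, dermis 1 was the highest and dermis 2 the lowest of the dermis arrays, and the layers did not overlap.

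The count of spinous genes changed when 1 array was left out. It was 14 without dermis 1, 5 without epidermis 2, 3 or 4, and 4 without dermis 3. These fits also have fewer arrays, so a lost call need not rest on the array left out. Dsc1, a desmosomal cadherin of the upper layers (2.07 ± 0.49), lost its call without epidermis 2, 3 or 4, or dermis 3 or 4. Its log2 fold change stayed between 1.51 and 2.41 with any 1 array left out. Within the envelope, the small proline-rich protein Sprr1a read 10.48, 10.14, 10.83 and 11.52 in epidermis and 8.67, 6.87, 7.93 and 7.26 in dermis (3.06 ± 0.39, adjusted p = 2.42e-04), and Cnfn, cornifelin, read 11.71, 11.30, 11.52 and 12.24 in epidermis and 10.28, 7.35, 8.36 and 8.999 in dermis (2.95 ± 0.51, adjusted p = 0.00145). Both lay well apart between the layers. Ivl, involucrin, an early scaffold of the envelope, read 9.49, 10.29, 10.41 and 11.37 in epidermis and 8.77, 5.97, 6.26 and 8.53 in dermis (3.01 ± 0.66, adjusted p = 0.00536). Its dermis arrays spread widely, with replicates 1 and 4 high and 2 and 3 low, and its call was lost without epidermis 2, 3 or 4, or dermis 2 or 3. Spink5, an inhibitor of skin proteases, showed the same 2 high and 2 low dermis arrays, 9.48, 6.63, 6.34 and 8.75, against 9.82, 10.97, 11.14 and 11.97 in epidermis (3.17 ± 0.71), and lost its call without epidermis 2, 3 or 4, or dermis 2 or 3. Lor, loricrin, the main protein of the finished envelope, was bright in every array, 14.49, 14.64, 14.70 and 14.85 in epidermis and 14.37, 12.84, 13.15 and 14.01 in dermis, and was not called (1.08 ± 0.30, adjusted p = 0.0181), but without dermis 1 it was, at 1.34.

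Enzymes that make the lipids of the skin barrier were mostly higher in epidermis. Of 21 measured, 15 were called higher in epidermis, and the median log2 fold change of the list was 2.37. Abca12, which loads lipid into lamellar bodies, read 7.04, 8.29, 8.996 and 8.92 in epidermis and 5.75, 5.81, 5.83 and 6.17 in dermis (2.42 ± 0.37, adjusted p = 6.83e-04). Epidermis 1 was the lowest epidermis array, and all 4 dermis arrays were low and close together. Cers3, the synthase of very long ceramides, read 10.998, 11.42, 11.48 and 11.67 in epidermis and 9.71, 7.30, 8.66 and 9.06 in dermis (2.71 ± 0.42, adjusted p = 7.64e-04). Elovl4, which makes the fatty acids for them, read 11.69, 12.40, 12.47 and 12.52 in epidermis and 10.72, 8.33, 9.33 and 9.79 in dermis (2.73 ± 0.43, adjusted p = 7.68e-04). For both enzymes dermis 1 was the highest dermis array and still lay below every epidermis array. Nipal4 (2.93 ± 0.46) was called likewise. Cers4, another ceramide synthase, went the other way, with 6.90, 6.01, 6.32 and 5.91 in epidermis and 7.54, 7.59, 7.64 and 7.69 in dermis (-1.33 ± 0.20, adjusted p = 5.39e-04), and its arrays did not overlap. Aloxe3, a lipoxygenase of the barrier, stayed just short of 2-fold (0.95 ± 0.18, adjusted p = 0.00258) and was called without epidermis 2, dermis 1 or dermis 4.

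Keratins of simple epithelia, periderm and stressed epidermis were called in 13 of 15 cases, all higher in epidermis (median 2.35). Krt8 read 10.67, 10.63, 11.15 and 11.16 in epidermis and 9.21, 7.91, 8.75 and 8.35 in dermis (2.35 ± 0.26, adjusted p = 9.76e-05), and its partner Krt18 read 8.97, 8.75, 9.36 and 9.49 in epidermis and 6.79, 5.46, 6.96 and 6.04 in dermis (2.83 ± 0.31, adjusted p = 1.00e-04). These are the keratins of simple epithelia. Krt4, a keratin of internal stratified epithelia and periderm, read 13.19, 13.29, 13.79 and 13.73 in epidermis and 11.60, 9.31, 11.60 and 10.30 in dermis (2.80 ± 0.46, adjusted p = 0.00103). In all 3, replicates 3 and 4 were the highest epidermis arrays, and dermis 2 was the lowest array. Krt17, which marks activated keratinocytes and hair buds, overlapped between the layers (0.76 ± 0.33, adjusted p = 0.108) and was called, at 1.07, without dermis 1. Krt16 stayed just short of 2-fold (0.95 ± 0.16) and was called without epidermis 1 or 3.

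Junction genes followed the same direction. Of 10 desmosomal genes 7 were called higher in epidermis (median 1.53), and of 15 tight junction genes 11 were (2.06). Jup, plakoglobin, which links cadherins to keratin, read 11.27, 10.99, 11.24 and 11.27 in epidermis and 10.36, 8.64, 9.03 and 9.32 in dermis (1.85 ± 0.31, adjusted p = 0.00104). Dsc2, a desmosomal cadherin, read 9.05, 9.72, 10.23 and 10.23 in epidermis and 7.69, 5.78, 7.51 and 6.61 in dermis (2.91 ± 0.42, adjusted p = 4.65e-04). Neither overlapped, and dermis 2 was the lowest array for both. Dsc3 (1.87 ± 0.45) was called, but not with the replicate number as a block (limma, adjusted p = 0.0137). Nor was it called after quantile normalization or with 50 added to each value. It also lost its call without epidermis 2, 3 or 4, or dermis 2, 3 or 4. The desmosome list gave 4 calls without dermis 3. Among tight junction genes, Cldn1 and Cldn4, 2 claudins of the epidermal barrier, gave 2.08 ± 0.31 and 2.06 ± 0.33 (adjusted p = 6.18e-04 and 9.47e-04). Cldn4 read 10.02, 9.69, 10.07 and 10.45 in epidermis and 9.04, 7.21, 7.98 and 7.77 in dermis. The scaffold Tjp3 gave 2.22 ± 0.32, cingulin, Cgn, 2.74 ± 0.44 and Marveld3, a junction membrane protein, 2.41 ± 0.29. Tjp1, the scaffold that mesenchyme makes too, was not called (0.41 ± 0.20).

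The list of hemidesmosome and epidermal laminin genes, which fix the epidermis to its base, was split. Higher in epidermis were Lama3, the alpha chain of the epidermal laminin (1.31 ± 0.17, adjusted p = 2.59e-04), Fras1 (1.23 ± 0.19, adjusted p = 7.74e-04) and Dst (1.03 ± 0.24). Dst lost its call with the replicate block (adjusted p = 0.0171) and without epidermis 2, 3 or 4, or dermis 1, 2, 3 or 4. Higher in dermis were Frem1 and Itgb1. Frem1, a secreted partner of Fras1 in the basement membrane, read 6.76, 7.30, 8.09 and 6.62 in epidermis and 9.55, 10.48, 10.67 and 10.15 in dermis (-3.02 ± 0.34, adjusted p = 9.98e-05), so that Fras1 and Frem1 lay on opposite sides. Itgb1, a beta integrin chain of most cells, read 6.46, 7.83, 7.15 and 7.80 in epidermis and 8.60, 9.43, 9.34 and 9.28 in dermis (-1.86 ± 0.31, adjusted p = 0.00104). Col7a1, the anchoring fibril collagen, read 9.78, 9.82, 9.70 and 10.03 in epidermis and 10.39, 10.83, 10.95 and 10.84 in dermis, higher in all 4 dermis arrays but short of 2-fold (-0.92 ± 0.14, adjusted p = 6.53e-04). It was called, at -1.04, without dermis 1.

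Genes of epithelial identity and of membrane proteases were called higher in epidermis in 15 of 19 cases (median 1.95). Cdh1, E-cadherin, read 12.50, 12.81, 12.85 and 12.66 in epidermis and 11.78, 10.07, 11.07 and 10.78 in dermis (1.78 ± 0.30, adjusted p = 0.0011). Grhl1, a grainyhead factor of the barrier, read 11.98, 12.47, 12.68 and 12.81 in epidermis and 10.83, 8.15, 9.85 and 10.18 in dermis (2.73 ± 0.48, adjusted p = 0.00148). Spint1, an inhibitor of membrane serine proteases, read 10.55, 10.41, 10.66 and 10.68 in epidermis and 9.10, 7.01, 8.03 and 7.81 in dermis (2.59 ± 0.35, adjusted p = 3.31e-04). The 4 epidermis arrays lay close together in each of these genes, while the dermis arrays spread from dermis 2, the lowest, to dermis 1, the highest. Rab25, a vesicle GTPase of epithelia, and Ap1m2, an adaptor of epithelial sorting, gave 2.37 ± 0.41 and 1.95 ± 0.33. Epcam, an epithelial adhesion molecule, was called on its brightest probe set over the 19 arrays (1.41 ± 0.18), but the probe set that was brightest over the skin arrays read the other way, at -0.98, so its direction is uncertain.

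Of 25 epidermal transcription factors 16 were called higher in epidermis (median 1.25). Grhl3, a grainyhead factor, read 10.90, 10.98, 11.09 and 11.26 in epidermis and 9.51, 7.01, 8.36 and 8.58 in dermis (2.69 ± 0.42, adjusted p = 7.29e-04). Rora, a nuclear receptor, read 10.37, 11.21, 11.47 and 11.56 in epidermis and 9.50, 7.35, 8.14 and 8.71 in dermis (2.73 ± 0.42, adjusted p = 7.26e-04). Both kept the layers apart in every array, with dermis 1 as the highest dermis array. Tfap2a, an AP-2 factor of ectoderm, gave 1.69 ± 0.23 (adjusted p = 3.68e-04). Elf5, an Ets factor, gave 3.37 ± 0.45, the largest value in the list, and Dlx3, a homeobox factor of the upper layers, was not called (0.70 ± 0.18).

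The calls of the epidermal lists depended on the test. With the methods' t-test, which does not share the spread between probe sets, transcription factors gave 8 calls, identity genes 7, periderm and stress keratins and tight junction genes 4 each, cornified genes and barrier lipid enzymes 3 each, and desmosomal and hemidesmosome genes 1 each. The methods' t-test called none of the spinous or basal genes. At an unadjusted p under 0.05 by limma, 16 of 16 and 9 of 11 were higher in epidermis, and 1 basal gene was higher in dermis. The share of all genes at that p was not counted, so these counts have no background beside them. With limma's treat, which asks for more than 2-fold, 3 periderm and stress keratins, 2 tight junction genes, 2 transcription factors and 1 cornified gene were called. With 50 added to each value the counts were 5 for spinous genes, 9 for cornified genes and 14 for barrier lipid enzymes. On the dermal side the methods' t-test called 14 collagens of 15 and all 16 blood endothelium genes.

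Promoter windows were looked up for genes on both sides. RefSeq (GRCm38.p6) gave a window of 300 bases, 250 before to 50 after the start, for 13800 genes tested, with the first listed window taken where a gene had several. The letters CACCTG, the E-box that Zeb and Snail repressors bind, were read on both strands. They stood in 32.2% of the 773 windows of genes called higher in epidermis, in 15.6% of the 1451 of genes called higher in dermis and in 19.6% of all 13800. More than 1 copy stood in 8.93%, 1.31% and 2.94%. With any listed window of a gene counted, the shares were 36.6%, 19.3% and 22.9%. TGANTCA, an AP-1 site, stood in 9.18%, 5.17% and 6.01% of first windows, GGGCGG, an Sp1 box, in 61.7%, 58.9% and 55.8%, and TATAAA in 10.6%, 10.7% and 9.23%. A match of CACCTG and one of TGANTCA can share their end letters. The median GC content of the windows was 60.0%, 60.7% and 59.0%. By list, CACCTG stood in 7 of 8 windows of periderm and stress keratins, in 7 of 12 of tight junction genes and in 8 of 22 of the cornified list, but in 4 of 18 of barrier lipid enzymes and 2 of 9 of spinous genes. Among dermal lists it stood in 3 of 12 windows of the condensate list, 3 of 11 of matrix proteases and 1 of 13 of fibroblast genes. These are descriptions of letters, and no binding was measured here.

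Windows of 4 genes called higher in epidermis that hold more than 1 CACCTG are shown so that the spacing can be read. They were picked after the letters were seen. Matches of either strand (CACCTG or CAGGTG) are in capitals and the rest in lower case, 5′ to 3′ on the strand of the gene. Positions count from 0 at the start site and give the first letter of a match. Rab25 (chr3:88548230-88548529, minus strand) holds 2, at -64 and -53. Ap1m2 (chr9:21312284-21312583, minus strand) holds 4, at -81, -51, -21 and -9, the first 3 evenly spaced. Elf5 (chr2:103411848-103412147, plus strand) holds 3, at -155, -112 and -11. Cldn4 (chr5:134946885-134947184, minus strand) holds 2, at -14 and 11, and also matches of GGGCGG and TGANTCA in lower case.
Rab25: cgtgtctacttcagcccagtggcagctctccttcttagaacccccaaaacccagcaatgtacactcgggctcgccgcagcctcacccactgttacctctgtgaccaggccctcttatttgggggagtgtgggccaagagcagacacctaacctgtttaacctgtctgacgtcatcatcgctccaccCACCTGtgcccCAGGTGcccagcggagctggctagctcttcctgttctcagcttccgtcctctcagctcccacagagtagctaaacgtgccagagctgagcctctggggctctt
Ap1m2: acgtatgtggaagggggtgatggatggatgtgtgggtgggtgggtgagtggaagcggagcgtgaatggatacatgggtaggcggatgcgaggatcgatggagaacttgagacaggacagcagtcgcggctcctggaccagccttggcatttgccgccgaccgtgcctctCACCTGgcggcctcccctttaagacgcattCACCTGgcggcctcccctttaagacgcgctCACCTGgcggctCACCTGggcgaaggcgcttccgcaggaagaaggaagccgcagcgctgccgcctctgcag
Elf5: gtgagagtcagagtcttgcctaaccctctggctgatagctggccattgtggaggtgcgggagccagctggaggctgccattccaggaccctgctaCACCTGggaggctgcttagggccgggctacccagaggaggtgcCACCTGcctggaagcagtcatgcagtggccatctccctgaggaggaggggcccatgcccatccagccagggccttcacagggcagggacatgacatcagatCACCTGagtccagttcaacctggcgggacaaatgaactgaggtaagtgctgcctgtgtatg
Cldn4: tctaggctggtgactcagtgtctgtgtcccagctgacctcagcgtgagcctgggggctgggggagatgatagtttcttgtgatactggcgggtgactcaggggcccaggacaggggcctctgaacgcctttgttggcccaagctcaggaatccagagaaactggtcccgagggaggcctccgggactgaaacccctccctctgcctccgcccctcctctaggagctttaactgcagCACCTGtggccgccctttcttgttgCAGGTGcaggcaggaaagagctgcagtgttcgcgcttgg
The window of Pdgfra (chr5:75152001-75152300, plus strand), called higher in dermis, holds none of the 4 motifs. It is a single chosen example. Most windows on either side lack CACCTG, which stood in 32.2% of those higher in epidermis and 15.6% of those higher in dermis.
Pdgfra: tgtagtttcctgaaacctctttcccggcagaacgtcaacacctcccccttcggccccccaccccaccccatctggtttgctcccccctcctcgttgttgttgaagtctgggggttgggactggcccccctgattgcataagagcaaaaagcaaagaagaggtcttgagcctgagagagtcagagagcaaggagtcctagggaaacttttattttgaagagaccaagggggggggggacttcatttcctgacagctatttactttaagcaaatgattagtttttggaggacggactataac

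Windows of 3 cornified envelope genes are shown for their AP-1 site, here in capitals. Lor (chr3:92083093-92083392, minus strand) has it at -48, Ivl (chr3:92573686-92573985, minus strand) at -116, and Sprr1a (chr3:92485832-92486131, minus strand) at -146 and -116. Each also holds a TATAAA, in lower case. Of 22 windows of the cornified list, 7 hold TGANTCA and 9 hold TATAAA. All 3 genes lie in the epidermal differentiation complex, a cluster of barrier genes. Of the 3, Sprr1a was called in every comparison that left out 1 array, Ivl in some of them, and Lor in the comparison without dermis 1 alone.
Lor: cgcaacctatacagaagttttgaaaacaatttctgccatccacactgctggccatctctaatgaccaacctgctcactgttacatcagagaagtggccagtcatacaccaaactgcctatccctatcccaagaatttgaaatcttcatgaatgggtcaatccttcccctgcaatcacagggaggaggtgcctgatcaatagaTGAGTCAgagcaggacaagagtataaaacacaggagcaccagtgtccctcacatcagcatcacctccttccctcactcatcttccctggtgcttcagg
Ivl: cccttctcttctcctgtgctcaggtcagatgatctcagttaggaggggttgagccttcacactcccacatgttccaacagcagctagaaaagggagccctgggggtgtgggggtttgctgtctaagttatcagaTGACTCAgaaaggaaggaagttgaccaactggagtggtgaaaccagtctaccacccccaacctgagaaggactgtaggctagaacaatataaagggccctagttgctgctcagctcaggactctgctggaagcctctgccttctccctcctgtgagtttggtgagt
Sprr1a: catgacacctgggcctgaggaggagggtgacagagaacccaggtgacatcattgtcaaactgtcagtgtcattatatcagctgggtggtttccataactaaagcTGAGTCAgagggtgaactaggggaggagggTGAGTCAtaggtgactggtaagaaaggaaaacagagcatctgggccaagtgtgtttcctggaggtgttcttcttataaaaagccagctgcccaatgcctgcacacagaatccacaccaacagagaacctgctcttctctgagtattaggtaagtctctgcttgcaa

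Epidermal transcripts were present in all dermis arrays. As the median over a list of each gene's intensity in a dermis array, in percent of its mean over the epidermis arrays, basal layer genes stood at 79.7%, 50.5%, 57.4% and 50.1%. Spinous genes stood at 59.4%, 11.6%, 22.3% and 40.8%, cornified genes at 43.3%, 18.9%, 25% and 37.5%, and barrier lipid enzymes at 43.3%, 12.7%, 16.1% and 24.4%. Periderm and stress keratins stood at 31.7%, 11%, 21.6% and 23.6%. Desmosomal genes stood at 54.2%, 23.1%, 37.3% and 40.9%, tight junction genes at 52.1%, 15.7%, 31% and 28.2% and identity genes at 50.6%, 15.1%, 22.5% and 26.2%. Hemidesmosome genes stood at 84.5%, 64.7%, 76.3% and 69.1%, above the basal list in every dermis array, and epidermal transcription factors at 51.4%, 31.9%, 34% and 39.4%. Dermis 1 was the highest in all 10 lists. Dermis 2 was the lowest in 9, and in the basal list lay within 1 point of dermis 4. With the UGM level of each gene taken off first, over genes whose epidermis mean was more than 100 in intensity above it, basal genes in dermis 2 stood at 34.8%, hemidesmosome genes at 38.5%, desmosomal genes at 14.7%, transcription factors at 10.2%, spinous genes at 8.48%, identity genes at 6.13%, cornified genes at 4.53%, barrier lipid enzymes at 4.47%, periderm and stress keratins at 4.02% and tight junction genes at 0.198%. Cornified genes over the 4 arrays stood at 32.3%, 4.53%, 10.2% and 18.4%, and tight junction genes at 28.7%, 0.198%, 10.9% and 9.42%. A dermis value below the UGM level counted as none. Genes were left out of every list but the spinous one, so for the others percents before and after are over unlike sets. Kept were 10 of 11 basal, 18 of 21 barrier lipid, 12 of 15 periderm and 12 of 15 tight junction genes. So were 8 of 10 desmosomal, 7 of 10 hemidesmosome, 16 of 19 identity, 16 of 24 cornified and 19 of 25 transcription factors. UGM itself stood at 15.1% to 22.2% of epidermis for tight junction genes, near dermis 2 before the subtraction. The part of these transcripts in the fold changes above was not tested.

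**Figure D3:**
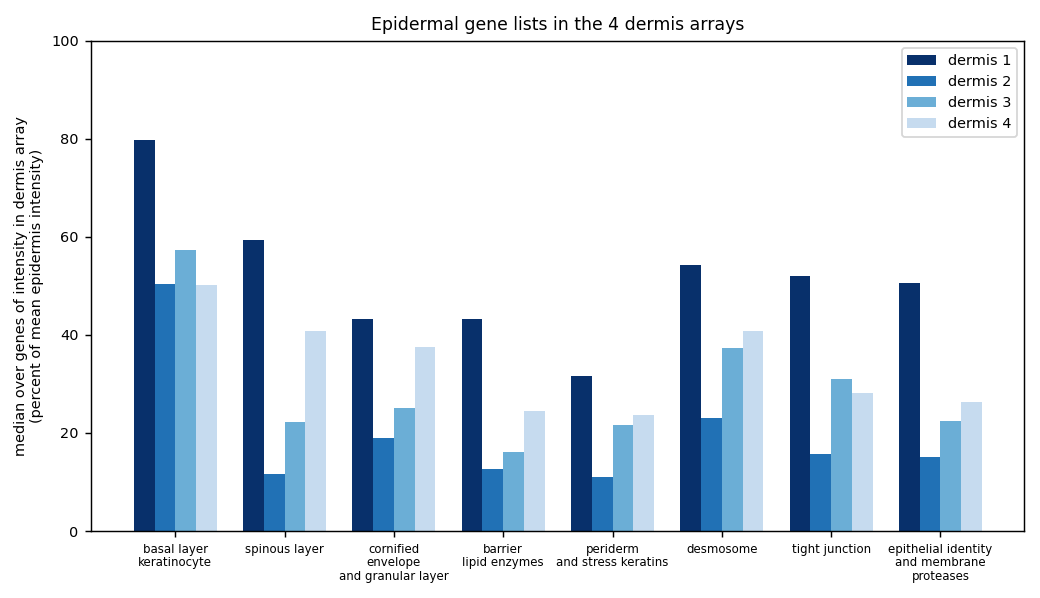
Median intensity of the genes of 8 epidermal lists in dermis arrays 1 to 4 (bars, dark to light), in percent of their mean intensity in epidermis. Dermis 1 is the highest bar in every list, and the basal list stands above 50% in every dermis array.

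Genes of the dermal lists gave signal in the epidermis arrays too. In percent of the dermis mean, collagens stood at 23.4%, 17.8%, 19.8% and 12.7% in the epidermis arrays and fibroblast genes at 16.3%, 12.6%, 15.8% and 7.1%. Blood endothelium genes stood at 17.4%, 12.7%, 15% and 12.4%. Regional transcription factors stood at 40.7%, 32.2%, 33.5% and 30.1%, basement membrane genes at 28%, 36.2%, 29.3% and 31.8% and proteoglycans at 30%, 22.1%, 24% and 24.7%. Epidermis 4 was the lowest array in the first 4 of these lists, epidermis 1 in the basement membrane list and epidermis 2 in the proteoglycans. No level of another tissue was taken off on this side. Blood endothelium genes and regional factors were dim in epidermis, with list medians of 5.69 to 6.21 and 5.69 to 6.22 in log2, against 9.31 to 10.29 for collagens. The part of background signal in these percents was not tested. Without dermis 1, 2383 probe sets were called higher in epidermis and 3304 higher in dermis. Without epidermis 1 the counts were 3429 and 3329, and without both 3445 and 3489, so the calls on the epidermal side depended more on epidermis 1 than on dermis 1.

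Genes of the hair placode and germ did not follow the epidermis. Of 15 measured, 3 were called, all higher in dermis, and the median log2 fold change was 0.06. Lhx2, a transcription factor of hair progenitors, read 5.03, 4.91, 4.23 and 4.56 in epidermis and 6.37, 6.76, 6.31 and 6.33 in dermis (-1.76 ± 0.18, adjusted p = 7.05e-05). Nfatc1, which is also a factor of endothelium, read 7.52, 7.27, 7.26 and 7.26 in epidermis and 8.65, 8.95, 8.89 and 8.76 in dermis (-1.49 ± 0.11, adjusted p = 1.05e-05). Sp5, a target of Wnt signals, read 6.65, 5.71, 5.96 and 5.85 in epidermis and 7.75, 8.62, 8.14 and 7.60 in dermis (-1.98 ± 0.26, adjusted p = 2.46e-04). None of these overlapped. Shh, the ligand made by hair placodes, read 8.35, 8.10, 7.93 and 8.52 in epidermis and 8.85, 8.97, 8.88 and 9.07 in dermis, higher in every dermis array but short of 2-fold (-0.72 ± 0.14, adjusted p = 0.00257). Edar, the placode receptor of ectodysplasin (0.20 ± 0.15), and Wnt10b (0.05 ± 0.17) overlapped between the layers. At an unadjusted p under 0.05 by limma 4 of the 15 were higher in epidermis and 4 higher in dermis. The share of all genes at that p was not counted. None of the 4 higher in epidermis was called by limma or by the methods' t-test.

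Of 11 melanocyte genes 4 were called higher in epidermis, 2 higher in dermis, and 5 were not called (median 0.60). On the epidermal side 1 was called with the methods' t-test and 2 with 50 added to each value. Dct, an enzyme of melanin synthesis, read 11.51, 11.42, 11.10 and 10.32 in epidermis and 9.69, 9.15, 9.35 and 9.34 in dermis (1.71 ± 0.24, adjusted p = 4.52e-04). Tyr, tyrosinase, read 8.15, 8.15, 7.85 and 6.95 in epidermis and 6.52, 6.16, 6.501 and 6.22 in dermis (1.42 ± 0.25, adjusted p = 0.00148), and Mlana read 7.44, 7.18, 6.71 and 6.80 in epidermis and 6.21, 5.49, 5.38 and 5.70 in dermis (1.34 ± 0.21, adjusted p = 8.41e-04). In Dct and Tyr, epidermis 4 was the lowest epidermis array but still above all dermis arrays. Pmel, a protein of the melanosome (1.53 ± 0.38), overlapped, and its call was lost without epidermis 1, 2 or 3, or dermis 2, 3 or 4. Kit, the stem cell factor receptor, which mast cells carry too, read 9.03, 9.21, 9.17 and 8.37 in epidermis and 10.02, 10.56, 10.38 and 10.53 in dermis (-1.43 ± 0.20, adjusted p = 3.91e-04), and Ednrb, the endothelin receptor, gave -1.77 ± 0.17 (adjusted p = 4.11e-05). Mitf, the regulator of the lineage, was not called (-0.14 ± 0.25). Of Merkel cell markers, Atoh1 (0.26 ± 0.22) and Krt20 (-0.07 ± 0.18) overlapped between the layers. The called members of that list, Krt8 and Krt18 on the epidermal side and Sox2, Isl1 and Gfi1 on the dermal side, are also genes of other cells.

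The genes of the dermal matrix were mostly higher in dermis. Collagens were called in 15 of 16 cases (median -2.49), elastic fibre genes in 15 of 16 (-2.97), small leucine-rich proteoglycans and versican in 9 of 12 (-2.06), matricellular glycoproteins in 13 of 18 (-2.26), and matrix proteases and their inhibitors in 15 of 18 (-2.36). Col6a3, a chain of the beaded filament collagen, read 11.31, 11.01, 11.39 and 10.04 in epidermis and 13.40, 13.93, 13.96 and 13.90 in dermis (-2.86 ± 0.28, adjusted p = 4.35e-05). Col26a1, a minor collagen, read 7.92, 6.95, 7.32 and 5.86 in epidermis and 10.53, 10.93, 10.70 and 10.59 in dermis (-3.67 ± 0.36, adjusted p = 4.36e-05), the largest difference in the list. In both, epidermis 4 was lowest and the layers were far apart. Col3a1 gave only -1.44 ± 0.18, with 13.32, 13.44, 13.68 and 12.77 in epidermis and 14.52, 14.73, 14.74 and 14.95 in dermis, so it was bright in the epidermis arrays too.

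Within the elastic fibre, Eln, elastin itself, read 8.26, 7.75, 7.47 and 7.07 in epidermis and 10.45, 10.97, 10.86 and 10.46 in dermis (-3.05 ± 0.24, adjusted p = 1.33e-05). Fbn2, the fibrillin of embryonic microfibrils, read 9.51, 9.53, 9.57 and 8.02 in epidermis and 12.30, 12.68, 12.87 and 12.39 in dermis (-3.40 ± 0.33, adjusted p = 4.14e-05). The cross-linking oxidases Lox and Loxl1 gave -3.44 ± 0.27 and -3.58 ± 0.35, and Fbln5, which joins elastin to microfibrils, -3.49 ± 0.30. Among proteoglycans, Aspn, asporin, read 7.70, 7.06, 7.73 and 7.15 in epidermis and 10.87, 10.86, 11.14 and 11.33 in dermis (-3.64 ± 0.19, adjusted p = 2.98e-06), and Lum, lumican, read 11.20, 10.81, 11.43 and 10.08 in epidermis and 13.21, 13.88, 13.83 and 13.72 in dermis (-2.78 ± 0.27, adjusted p = 4.79e-05). None of these genes overlapped. Dcn, decorin, which is bright in both layers, gave a smaller difference (-1.37 ± 0.12, adjusted p = 2.71e-05).

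Of the adhesive glycoproteins, Fn1, fibronectin, read 10.30, 9.98, 10.03 and 9.52 in epidermis and 12.55, 12.997, 13.11 and 12.93 in dermis (-2.94 ± 0.18, adjusted p = 4.49e-06), and Spon1, spondin, read 6.43, 6.12, 5.99 and 5.47 in epidermis and 8.99, 9.90, 9.81 and 9.43 in dermis (-3.53 ± 0.24, adjusted p = 7.00e-06). Postn, periostin, which lies under basement membranes, stayed short of 2-fold (-0.75 ± 0.21, adjusted p = 0.0212). Of the proteases, the membrane collagenase Mmp14 gave -1.98 ± 0.14 and the aggrecanase Adamts5 -3.10 ± 0.25, with the inhibitor Timp1 at -2.54 ± 0.13 (adjusted p = 8.07e-06, 1.68e-05 and 2.98e-06). Mmp2, a gelatinase, was not called (-0.68 ± 0.15).

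Basement membrane genes differed by chain. Of 14 measured, 8 were called, all higher in dermis (median -1.68). Col4a1, a collagen chain of all basement membranes, read 11.36, 11.40, 11.32 and 11.04 in epidermis and 13.31, 13.67, 13.73 and 13.73 in dermis (-2.33 ± 0.13, adjusted p = 3.82e-06), and Nid1, nidogen, read 9.38, 9.57, 9.96 and 9.43 in epidermis and 11.71, 12.31, 12.32 and 12.31 in dermis (-2.58 ± 0.18, adjusted p = 7.43e-06). Lama4, the laminin chain of vessels, gave -3.31 ± 0.26, and Lama2, that of muscle, -2.97 ± 0.20. The chains Col4a5, Col4a6 and Lama5, which epithelia make, lay on the epidermal side but short of 2-fold, at 0.88 ± 0.17, 0.85 ± 0.14 and 0.67 ± 0.14 (adjusted p = 0.0024, 0.00121 and 0.0039).

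Fibroblast genes and mesenchymal regulators were called higher in dermis in 18 of 20 cases (median -3.07). Prrx1, a homeobox factor of mesenchyme, read 8.28, 8.40, 8.81 and 7.45 in epidermis and 11.39, 12.06, 12.23 and 12.01 in dermis (-3.69 ± 0.28, adjusted p = 1.15e-05). Cd34, a surface protein of fibroblasts and endothelium, read 7.64, 7.29, 7.46 and 6.62 in epidermis and 11.06, 11.52, 11.11 and 11.56 in dermis (-4.06 ± 0.22, adjusted p = 3.60e-06). Zeb1, a repressor that binds the E-box shown above, read 7.78, 7.95, 8.04 and 7.11 in epidermis and 10.20, 10.78, 10.82 and 10.66 in dermis (-2.89 ± 0.22, adjusted p = 1.08e-05), and its relatives Zeb2 and Snai1 gave -3.03 ± 0.37 and -1.69 ± 0.15. All of them kept the layers apart. Snai2 was not called (-0.48 ± 0.15). Dpp4, a peptidase used as a marker of dermal fibroblasts, went against its list, with 8.93, 9.88, 10.18 and 10.27 in epidermis and 8.67, 8.11, 8.22 and 8.74 in dermis (1.38 ± 0.28, adjusted p = 0.0038), and lost its call without epidermis 2, 3 or 4, or dermis 2 or 3.

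Position factors of the mesenchyme were called higher in dermis in 18 of 31 cases (median -1.64). Tbx15, a T-box factor of dorsal dermis, read 6.10, 6.03, 6.20 and 6.53 in epidermis and 9.11, 9.99, 9.70 and 9.71 in dermis (-3.41 ± 0.19, adjusted p = 3.68e-06), and Meox2 read 5.67, 5.97, 5.87 and 5.44 in epidermis and 9.56, 9.85, 9.81 and 10.18 in dermis (-4.11 ± 0.16, adjusted p = 2.58e-06). Osr1 gave -3.53 ± 0.36 and Ebf1 -3.49 ± 0.25. En1, a marker of the lineage of back dermis, was dim on this probe set, with 3.88, 3.69, 3.76 and 3.73 in epidermis and 4.77, 5.22, 5.08 and 4.41 in dermis (-1.10 ± 0.17, adjusted p = 6.33e-04), and lost its call without dermis 2.

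Of 25 Hox genes, which record position along the body, 6 (24.0%) were called higher in dermis. The 2 (8.0%) called higher in epidermis are near the share over all genes, and the median of the list was -0.12. Hoxd8 read 8.08, 8.06, 7.96 and 7.71 in epidermis and 9.95, 10.60, 10.58 and 10.30 in dermis (-2.41 ± 0.16, adjusted p = 6.50e-06), Hoxa9 read 6.55, 6.37, 7.13 and 5.78 in epidermis and 8.56, 9.29, 9.50 and 9.07 in dermis (-2.65 ± 0.28, adjusted p = 7.82e-05), and Hoxc8 gave -1.33 ± 0.15. Hoxa5 ran the other way, 9.42, 9.39, 9.09 and 9.14 in epidermis and 8.36, 7.92, 8.29 and 7.72 in dermis (1.18 ± 0.16, adjusted p = 3.21e-04), as did Hoxa4 (1.26 ± 0.23, adjusted p = 0.00174). None of these 5 genes overlapped. With the median over a gene's probe sets Hoxa5 (0.81) and Hoxa4 (0.94) were short of 2-fold, and 1 Hox gene was called higher in epidermis with the methods' t-test.

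Genes of the dermal condensate and papilla were called higher in dermis in 13 of 16 cases (median -1.84). Sox2, a factor of the condensate and of Merkel cells, read 6.21, 6.17, 5.90 and 5.28 in epidermis and 7.44, 8.36, 8.17 and 7.81 in dermis (-2.05 ± 0.25, adjusted p = 1.57e-04). Rspo3, an enhancer of Wnt signals, read 6.05, 6.20, 6.49 and 5.75 in epidermis and 9.24, 10.04, 9.86 and 9.78 in dermis (-3.61 ± 0.20, adjusted p = 3.68e-06), and Wif1, a Wnt inhibitor, read 8.04, 7.83, 7.68 and 6.75 in epidermis and 10.90, 11.53, 11.30 and 11.36 in dermis (-3.70 ± 0.26, adjusted p = 8.22e-06). The layers did not overlap. Trps1, a GATA-like factor, gave -2.78 ± 0.14, and Sox18, also a factor of endothelium, -3.51 ± 0.23. Fgf10 was dim in both layers and overlapped (-0.20 ± 0.15).

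Vessel genes were dermal. All 16 blood endothelium genes were called higher in dermis (median -2.84), as were 6 of 7 lymphatic genes (-2.42) and 10 of 14 genes of smooth muscle and pericytes (-1.84). Cdh5, the endothelial cadherin, read 5.96, 5.65, 6.10 and 5.57 in epidermis and 9.27, 9.50, 9.45 and 10.02 in dermis (-3.74 ± 0.18, adjusted p = 2.66e-06). Tek, the angiopoietin receptor, read 5.52, 5.36, 5.24 and 5.26 in epidermis and 8.76, 9.23, 9.10 and 9.35 in dermis (-3.77 ± 0.14, adjusted p = 2.58e-06). Dermis 4 was the highest array for both. Pecam1 was dim but called (-1.24 ± 0.15). Of lymphatic genes, Mmrn1 read 5.16, 5.64, 5.45 and 5.54 in epidermis and 9.07, 9.39, 9.57 and 10.08 in dermis (-4.08 ± 0.20, adjusted p = 2.75e-06), Reln gave -3.03 ± 0.17, and Prox1, the regulator of the lineage, gave -1.001 ± 0.19 on a dim probe set and lost its call without epidermis 2, 3 or 4, or dermis 2 or 4. Rgs5, a pericyte gene, gave -3.31 ± 0.18, Kcnj8, a potassium channel of pericytes, -3.49 ± 0.27, and Acta2, smooth muscle actin, -3.03 ± 0.28 (adjusted p = 3.68e-06, 1.18e-05 and 3.37e-05). Myh11, the myosin of mature smooth muscle, was not called (-0.79 ± 0.14).

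Skeletal muscle genes were called higher in dermis in 14 of 18 cases (median -2.997). Myog, a myogenic factor, read 7.32, 6.58, 6.63 and 5.86 in epidermis and 10.37, 10.49, 9.97 and 10.22 in dermis (-3.66 ± 0.26, adjusted p = 8.99e-06). Acta1, skeletal actin, read 8.20, 8.05, 7.87 and 8.08 in epidermis and 11.81, 11.32, 11.04 and 12.65 in dermis (-3.66 ± 0.29, adjusted p = 1.52e-05), and Ckm, muscle creatine kinase, read 6.28, 6.24, 6.04 and 6.03 in epidermis and 9.45, 8.79, 7.29 and 10.57 in dermis (-2.88 ± 0.55, adjusted p = 0.00242). The early factor was even among the dermis arrays, while the contractile genes ranged widely, with dermis 4 highest and dermis 3 lowest. The list medians in dermis 1 to 4 were 8.85, 8.61, 8.02 and 9.85, and those in epidermis 6.38, 6.41, 6.48 and 6.07.

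Fat genes set epidermis 1 apart. Fabp4, a fatty acid binding protein of adipocytes, read 9.31, 7.18, 7.06 and 6.73 in epidermis and 10.52, 10.56, 10.53 and 11.35 in dermis (-3.17 ± 0.49, adjusted p = 7.64e-04), and Zfp423, a factor of fat precursors, read 5.43, 4.99, 5.29 and 4.40 in epidermis and 7.76, 8.46, 8.15 and 8.13 in dermis (-3.09 ± 0.23, adjusted p = 1.03e-05). Of 7 genes 4 were called higher in dermis (median -2.22). Adipoq, adiponectin, read 9.63, 3.63, 3.73 and 3.63 in epidermis and 3.57, 3.77, 3.57 and 4.68 in dermis, and Car3, a carbonic anhydrase of fat and muscle, read 12.94, 5.83, 5.05 and 6.43 in epidermis and 7.93, 8.21, 8.42 and 10.21 in dermis. Epidermis 1 alone was high for both, above every dermis array. Neither gene was called (1.26 ± 1.19 and -1.13 ± 1.48), and without epidermis 1 Adipoq gave -0.24 and Car3 -2.92, at which Car3 was called higher in dermis.

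**Figure D4:**
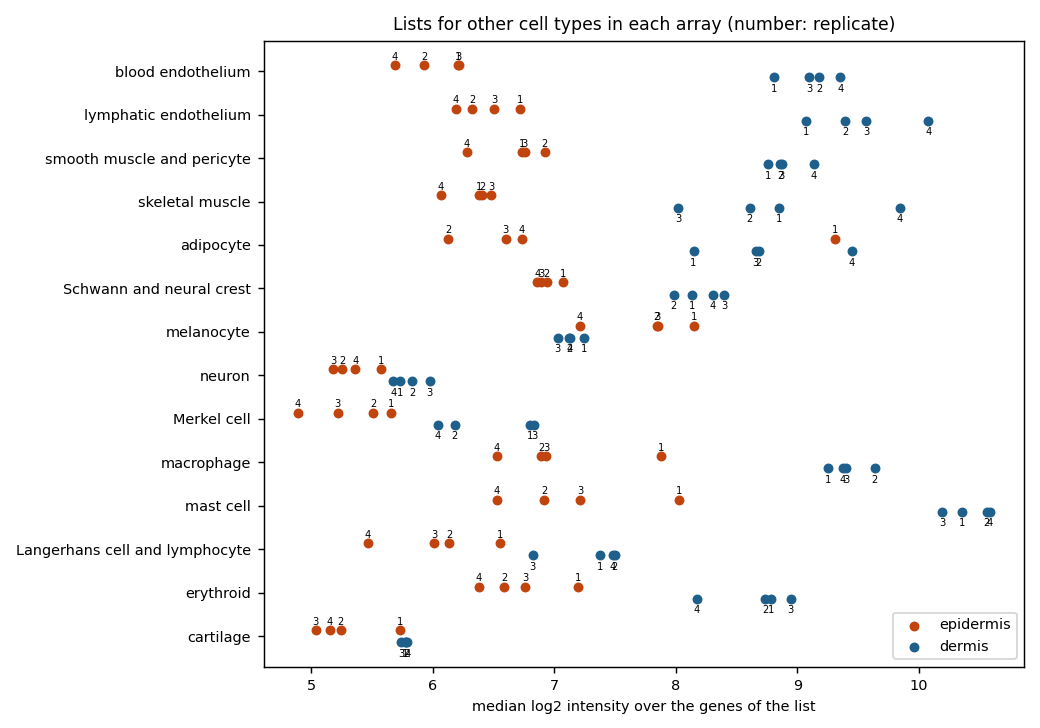
Median log2 intensity over the genes of each list for other cell types, with 1 point per array (number: replicate), epidermis in red and dermis in blue. Vessel, muscle, macrophage and mast cell lists are far apart between the layers, epidermis 1 lies among the dermis arrays in the adipocyte list, and in the melanocyte list epidermis 1, 2 and 3 lie above all dermis arrays.

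Macrophage and mast cell genes were higher in dermis. All 14 macrophage genes were called higher there (median -2.73), and 7 of 8 mast cell genes (-2.95). Mrc1, the mannose receptor of tissue macrophages, read 7.97, 8.02, 8.26 and 7.16 in epidermis and 11.40, 11.78, 11.94 and 11.83 in dermis (-3.89 ± 0.22, adjusted p = 3.93e-06), and Csf1r, the growth factor receptor of the lineage, read 9.80, 8.71, 8.88 and 8.36 in epidermis and 11.79, 11.90, 11.80 and 11.71 in dermis (-2.86 ± 0.26, adjusted p = 2.78e-05). Cma1, mast cell chymase, read 10.95, 9.75, 9.68 and 8.34 in epidermis and 13.04, 13.22, 12.99 and 13.35 in dermis (-3.47 ± 0.43, adjusted p = 1.96e-04). Epidermis 1 was the highest epidermis array for Csf1r and Cma1 and epidermis 4 the lowest, and no array overlapped. Cpa3, mast cell carboxypeptidase, gave -2.72 ± 0.26. Ptprc, a marker of all white cells, gave -3.02 ± 0.21, while Cd207, of Langerhans cells, and Cd3e, of T cells, were not called (0.14 ± 0.10 and 0.06 ± 0.10). Erythroid genes were called in 6 of 10 cases (median -1.65), with Alas2, the heme synthesis enzyme of red cells, at 8.53, 6.99, 7.23 and 6.97 in epidermis and 10.85, 10.55, 10.27 and 10.68 in dermis (-3.15 ± 0.32, adjusted p = 5.47e-05).

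Of 11 neuron genes 4 were called higher in dermis, and of 11 Schwann and neural crest genes 2 were called higher in epidermis and 4 higher in dermis. Gap43, a growth cone protein, read 7.82, 7.16, 7.20 and 6.57 in epidermis and 10.21, 10.74, 10.23 and 10.49 in dermis (-3.23 ± 0.24, adjusted p = 1.03e-05), and Stmn2, a neuronal stathmin, gave -2.58 ± 0.18 (adjusted p = 8.34e-06). Tubb3 was not called (0.05 ± 0.13). Sox10, a factor of Schwann cells and melanocytes, overlapped between the layers (-0.45 ± 0.24). Ngfr, the neurotrophin receptor, gave -2.46 ± 0.12 on its brightest probe set, with the median over its probe sets at 0.11. Mbp was called higher in epidermis (1.68 ± 0.21), but of its 8 probe sets 2 were called higher in epidermis and 2 higher in dermis, so its direction is uncertain. Erbb3, which keratinocytes carry too, was higher in epidermis (1.44 ± 0.16, adjusted p = 1.07e-04). Cartilage genes gave 1 call of 10 (10%), near the 11.1% of all genes called higher in dermis. It was Col9a1 (-2.86 ± 0.28), and Col2a1, the main collagen of cartilage, was not called (-0.40 ± 0.12).

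In the Wnt pathway 5 of 41 genes were called higher in epidermis and 16 higher in dermis (median -0.59). Of the ligands, Wnt4 read 12.08, 12.03, 11.85 and 11.97 in epidermis and 11.31, 10.58, 10.90 and 10.36 in dermis (1.20 ± 0.19, adjusted p = 7.57e-04), and Wnt7b read 11.15, 10.67, 10.69 and 11.20 in epidermis and 10.20, 8.68, 9.25 and 9.19 in dermis (1.596 ± 0.29, adjusted p = 0.00171). Wnt5a read 6.55, 5.71, 6.72 and 5.15 in epidermis and 9.05, 10.11, 10.05 and 9.54 in dermis (-3.66 ± 0.36, adjusted p = 4.54e-05), and Wnt2 and Wnt11 also lay on the dermal side (-2.26 ± 0.19 and -1.61 ± 0.24). None of these ligands overlapped between the layers. Of the receptors, Fzd6 and Fzd5 were higher in epidermis (1.16 ± 0.16 and 1.13 ± 0.21, adjusted p = 3.58e-04 and 0.00222, Fzd5 not called without epidermis 4), and Ror2, a receptor of Wnt5a, and Fzd4 were higher in dermis (-3.25 ± 0.32 and -2.39 ± 0.14). Of secreted inhibitors, 2 with large changes were higher in dermis, Sfrp2 at 6.29, 5.85, 5.20 and 4.84 in epidermis and 9.07, 9.63, 9.63 and 9.34 in dermis (-3.87 ± 0.29, adjusted p = 1.04e-05) and Dkk2 at -3.78 ± 0.25. Axin2, a common target of the pathway, was not called (0.33 ± 0.13). Wnt3 gave 1.04 ± 0.23 and lost its call without epidermis 1, 2 or 4, or dermis 2, 3 or 4. The list gave 3 calls on the epidermal side without epidermis 4.

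Hedgehog genes were called in 3 of 11 cases, all higher in dermis (median -0.82). Smo, the signal transducer, gave -1.19 ± 0.16, the co-receptor Cdon -1.44 ± 0.17 and the factor Gli3 -1.22 ± 0.22 (adjusted p = 2.69e-04, 1.61e-04 and 0.00166). The target genes Gli1 (-0.98 ± 0.14) and Ptch1 (-0.55 ± 0.18) were not called, though Gli1 was near 2-fold and was called without epidermis 1, epidermis 2, dermis 1 or dermis 4. Of ectodysplasin genes, the ligand Eda (-0.52 ± 0.14) and the receptor Edar were not called, and Traf6, an adaptor, was higher in epidermis (1.26 ± 0.18, adjusted p = 3.99e-04).

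The FGF receptors Fgfr3 and Fgfr1 lay on opposite sides. Fgfr3 read 10.73, 10.87, 10.96 and 11.23 in epidermis and 9.46, 8.14, 8.71 and 8.84 in dermis (2.16 ± 0.24, adjusted p = 1.06e-04), Fgfr1 read 8.39, 7.92, 7.96 and 7.11 in epidermis and 10.67, 11.37, 11.09 and 11.25 in dermis (-3.25 ± 0.26, adjusted p = 1.38e-05), and Fgfr2 overlapped between the layers (0.55 ± 0.23). In Fgfr3 all epidermis arrays were above all dermis arrays, and in Fgfr1 the reverse held. Fgfbp1, a carrier that frees FGF from the matrix, was higher in epidermis (2.04 ± 0.22, adjusted p = 9.00e-05), and the ligands Fgf7 and Fgf18 were higher in dermis (-2.53 ± 0.18 and -1.62 ± 0.21). In all, 3 of 18 genes were called higher in epidermis and 5 higher in dermis (median -0.37).

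In the EGF pathway 7 of 14 genes were called higher in epidermis (median 1.01), and 4 were with the methods' t-test or with 50 added to each value. Another 2 were higher in all 4 dermis arrays without being called. Ereg, epiregulin, read 7.97, 8.72, 8.21 and 9.92 in epidermis and 6.53, 4.47, 5.51 and 5.58 in dermis (3.18 ± 0.48, adjusted p = 6.31e-04), and Tgfa, another ligand, read 8.28, 8.69, 8.82 and 9.74 in epidermis and 7.64, 6.39, 6.37 and 7.30 in dermis (1.95 ± 0.36, adjusted p = 0.00199). Errfi1, a feedback inhibitor of the receptors, read 11.14, 11.57, 11.59 and 11.91 in epidermis and 10.36, 9.53, 9.79 and 9.95 in dermis (1.64 ± 0.20, adjusted p = 1.79e-04). For both ligands epidermis 4 was the highest array. The receptor Egfr (1.07 ± 0.26, adjusted p = 0.00956) overlapped between the layers through epidermis 1, missed the threshold with the replicate block (adjusted p = 0.0139) and lost its call without epidermis 2, 3 or 4, or dermis 1, 2, 3 or 4. Erbb2, a co-receptor, gave 1.15 ± 0.17 and lost its call without dermis 2. Hbegf overlapped (0.39 ± 0.15).

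PDGF and VEGF genes were mostly dermal. Of 13, 8 were called higher in dermis and 1 (7.69%) higher in epidermis, the latter near the share over all genes (median -1.78). The ligand Pdgfc gave 1.03 ± 0.18, called higher in epidermis but not without epidermis 2 or 4, or dermis 2 or 4, and Pdgfa was not called (0.43 ± 0.17), while the receptors Pdgfra and Pdgfrb were higher in dermis (-3.37 and -3.63). Vegfa was not called (0.31 ± 0.16). Vegfd, a ligand of lymphatic receptors, read 7.99, 7.78, 7.39 and 7.37 in epidermis and 10.502, 11.09, 11.08 and 10.64 in dermis (-3.20 ± 0.19, adjusted p = 4.13e-06), and its layers were far apart, as were those of Nrp1, a co-receptor (-2.89 ± 0.21, adjusted p = 9.73e-06).

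In the TGF-beta and activin list 2 of 15 genes were called higher in epidermis and 6 higher in dermis (median -0.59). All 3 TGF-beta ligands were higher in dermis, Tgfb1 at -1.56 ± 0.11, Tgfb2 at -1.12 ± 0.18 and Tgfb3 at -2.48 ± 0.13, and so was the receptor Tgfbr2 (-2.34 ± 0.15). Tgfb2 lost its call without epidermis 1. Acvr1b, an activin receptor, read 11.87, 11.94, 11.92 and 11.87 in epidermis and 10.99, 9.86, 10.44 and 10.01 in dermis (1.58 ± 0.22, adjusted p = 3.48e-04), with the 4 epidermis arrays nearly equal. The ligands Bmp2 and Bmp7 overlapped (0.43 ± 0.21 and 0.32 ± 0.15), Bmp4, a ligand of the condensate, was higher in dermis (-1.92 ± 0.19), and Bambi, a decoy receptor, was higher in epidermis (1.69 ± 0.23, adjusted p = 3.16e-04). Of 24 BMP genes 8 were called higher in dermis and 1 (4.17%) higher in epidermis, the latter near the share over all genes.

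Of 18 Notch genes 3 were called higher in epidermis and 5 higher in dermis. Higher in epidermis were the ligand Jag1 (1.27 ± 0.20, adjusted p = 8.81e-04), the target Nrarp (1.48 ± 0.23, adjusted p = 8.32e-04) and Notch1, with 12.39, 12.81, 12.70 and 12.59 in epidermis and 11.88, 11.33, 11.69 and 11.55 in dermis (1.01 ± 0.14). Notch1 lay near the 2-fold line and lost its call without epidermis 2 or 3, or dermis 2 or 4. Higher in dermis were Notch4, an endothelial receptor (-2.33 ± 0.13), and the targets Hey1, Hey2 and Heyl (-1.77 ± 0.17, -2.67 ± 0.20 and -1.92 ± 0.20). With the median over its probe sets Notch4 gave 0.03. Hes1, a target in keratinocytes, was higher in all 4 epidermis arrays but short of 2-fold (0.72 ± 0.10, adjusted p = 3.96e-04).

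Of 18 Eph and ephrin genes 2 (11.1%) were called higher in epidermis and 3 (16.7%) higher in dermis, near the shares over all genes, and of 23 semaphorins and plexins 3 and 7 (30.4%) were. The values are therefore those of single genes. Of the receptors, Epha1 read 9.59, 9.71, 9.82 and 9.67 in epidermis and 8.47, 7.05, 7.40 and 7.51 in dermis (2.09 ± 0.25, adjusted p = 1.73e-04), while Epha3 read 6.34, 5.87, 7.23 and 5.55 in epidermis and 9.43, 9.75, 9.94 and 10.12 in dermis (-3.57 ± 0.32, adjusted p = 2.78e-05). Of semaphorins, the membrane-bound Sema4a and Sema4g were higher in epidermis (2.18 ± 0.29 and 1.46 ± 0.18) and the secreted Sema3c and Sema3d higher in dermis (-2.50 ± 0.25 and -2.20 ± 0.21), as was Plxnd1, a plexin of vessels (-2.91 ± 0.19). All 7 genes kept their layers apart. Efna3, an ephrin, was called higher in epidermis (2.0 ± 0.39), but not without epidermis 2 or 4, or dermis 2, 3 or 4.

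Of 18 IGF and imprinted growth genes 14 were called higher in dermis (median -1.81). Igf1 read 7.62, 7.90, 8.30 and 7.59 in epidermis and 10.96, 11.43, 11.80 and 11.73 in dermis (-3.63 ± 0.21, adjusted p = 4.18e-06), and Igfbp3 gave -3.28 ± 0.19. Igf2, bright in both layers, was just short of 2-fold (-0.99 ± 0.12, adjusted p = 1.32e-04) and was called without epidermis 1 or dermis 1, and the receptor Igf1r was not called (-0.29 ± 0.16). Of 14 retinoid genes 2 were called higher in epidermis and 4 higher in dermis. The binding proteins Crabp1 and Crabp2 opposed each other, with Crabp1 at 10.52, 9.23, 9.68 and 7.44 in epidermis and 12.87, 13.15, 12.86 and 12.40 in dermis (-3.60 ± 0.53, adjusted p = 5.35e-04) and Crabp2 at 9.93, 9.58, 9.64 and 10.25 in epidermis and 9.20, 8.53, 8.32 and 8.75 in dermis (1.15 ± 0.21, adjusted p = 0.00175). The catabolic enzyme Cyp26b1 was dermal (-1.502 ± 0.22), and the receptor Rxra epidermal (1.07 ± 0.14, not called without dermis 2).

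**Figure D5:**
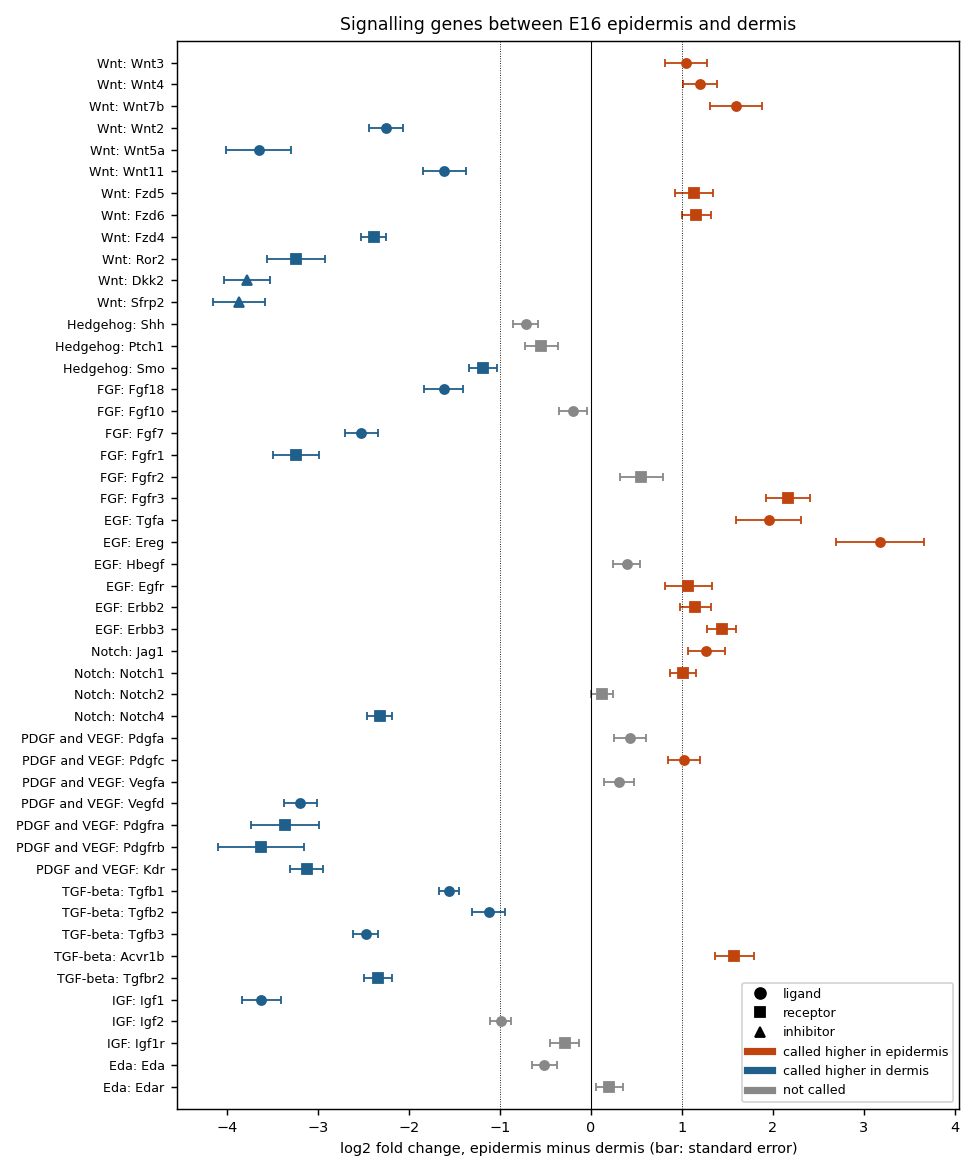
Log2 fold change (epidermis minus dermis, bar: SE) of signalling genes of 9 pathway groups, with ligands as circles, receptors as squares and inhibitors as triangles, in red where called higher in epidermis, in blue where called higher in dermis and in grey where not called; dotted lines mark 2-fold. EGF ligands and receptors lie to the right, PDGF and VEGF receptors, Igf1 and the TGF-beta ligands lie to the left, and Wnt ligands lie on both sides.

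Cell cycle genes gave few calls, but all lay on the dermal side. Of 19, 1 was called, Mcm3, a subunit of the replication helicase (-1.05 ± 0.15, adjusted p = 4.65e-04), higher in dermis but not without epidermis 3, and the median was -0.67. That 1 call (5.26%) is below the 11.1% of all genes called higher in dermis. All 19 were higher in dermis at an unadjusted p under 0.05 by limma, but the share of all genes at that p was not counted. In 12 of the 19 all dermis arrays lay above all epidermis arrays, which held for 21.8% of all genes. Mki67, a marker of dividing cells, read 11.50, 12.46, 12.44 and 12.42 in epidermis and 12.45, 12.74, 12.94 and 12.77 in dermis (-0.52 ± 0.22, adjusted p = 0.0937), with epidermis 1 lowest. Of 11 D cyclins, Cdk inhibitors and Myc genes 3 were called on each side. Cdkn2b, an inhibitor of Cdk4 and Cdk6, read 8.998, 8.85, 8.97 and 9.10 in epidermis and 7.71, 6.18, 6.10 and 6.89 in dermis (2.26 ± 0.31, adjusted p = 3.38e-04), and Cdkn1a, p21, gave 1.35 ± 0.21 (adjusted p = 8.44e-04). Ccnd1, cyclin D1, read 9.38, 8.94, 8.99 and 8.70 in epidermis and 10.78, 11.23, 11.08 and 10.95 in dermis (-2.01 ± 0.16, adjusted p = 1.36e-05), and Cdkn2c gave -1.77 ± 0.15. Mycl was higher in epidermis (1.21 ± 0.17) and Mycn in dermis (-1.26 ± 0.16). Genes of fatty acid and sterol synthesis gave 2 calls of 15, Lss on the epidermal side (1.23 ± 0.14) and Scd1 on the dermal side (-1.29 ± 0.16). Each is 6.67% of the list, against 5.84% and 11.1% over all genes, so these are values of single genes.

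Of 14 immediate early and heat shock genes 2 (14.3%) were called higher in epidermis. Klf2, a factor of vessels too, was the 1 (7.14%) called higher in dermis (-1.87 ± 0.19), against 11.1% of all genes. Fos and Egr1 varied with the replicate number. Fos read 12.16, 12.71, 12.90 and 13.89 in epidermis and 11.38, 10.91, 11.97 and 13.08 in dermis (1.08 ± 0.47, adjusted p = 0.108), and Egr1 read 10.96, 11.71, 12.10 and 13.29 in epidermis and 11.09, 11.22, 11.87 and 13.03 in dermis (0.21 ± 0.52, adjusted p = 0.805). Both were highest in replicate 4 of both layers. With the replicate number as a block, Fos passed (adjusted p = 0.00321), as did Zfp36 (adjusted p = 0.00148), which brought the list from 2 to 4 genes called higher in epidermis. It gave 1 without epidermis 2, 3 or 4, or without dermis 3. The heat shock gene Hspa1a read 12.21, 12.13, 12.08 and 12.26 in epidermis and 10.96, 8.67, 9.35 and 10.09 in dermis (2.40 ± 0.40, adjusted p = 0.00105), with epidermis even and dermis 2 lowest. Its neighbour Hspa1b (1.39 ± 0.30), a near copy, lost its call without epidermis 2, 3 or 4, or dermis 3. Of 9 reference genes, Actb (-0.19 ± 0.09) and Tbp (-0.05 ± 0.11) were not called, while B2m (-1.07 ± 0.15) and Gusb (-2.59 ± 0.29) were called higher in dermis, B2m not without epidermis 3.

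The largest differences on the epidermal side were led by Aadacl2fm1, an arylacetamide deacetylase family member, with 7.74, 8.74, 8.71 and 9.01 in epidermis and 5.0, 3.87, 4.26 and 4.57 in dermis (4.13 ± 0.30, 17.5-fold, adjusted p = 9.57e-06). Cyp2b19, a cytochrome P450 of keratinocytes that acts on arachidonic acid, read 8.20, 9.35, 9.92 and 10.23 in epidermis and 6.43, 4.43, 4.70 and 6.14 in dermis (3.997 ± 0.53, adjusted p = 3.02e-04). Serpinb11 (3.51 ± 0.48) and Serpinb3a (3.37 ± 0.50), serpins of one gene cluster, Dynap (3.41 ± 0.46), Rdh9, a retinol dehydrogenase (3.37 ± 0.56), and Arg1, arginase (3.34 ± 0.30), followed. In Cyp2b19 and Serpinb11 epidermis 1 was the lowest epidermis array. Orm1, an acute phase protein, gave 3.32 ± 0.68 and lost its call without epidermis 2, 3 or 4, or dermis 2 or 3. On the dermal side, Rpl39l, a ribosomal protein paralog, gave -4.19 ± 0.31, whose probe set may read its paralog too, and the largest change of all was that of C1qtnf3 (-5.15 ± 0.26, 35.4-fold).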

How the data were processed

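RNA of 4 epidermis and 4 dermis pools of E16 back skin was hybridised to mouse whole-genome 3′ arrays. The deposited table gives 1 intensity on a linear scale per probe set and array, which the authors made from the scanned arrays. The submitters' processing notes name GCOS 1.4, and the paper also names PLIER. Which of them made the table was not stated. Array medians lie close together, so the values were taken as already scaled between arrays. No counts stand behind the values, and the number of arrays limits the precision. Nothing in the sources says how far the pools are separate, so p-values measure the spread between these samples. Detection calls were not used.

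The table holds 45101 probe sets. The 64 controls were dropped, as were 3488 that had no value over 20 in any of the 19 arrays, the threshold of the methods. The highest value left out was 19.998 and the lowest maximum kept was 20.007. Names came from the platform annotation: 34945 probe sets had 1 symbol, 932 had several and were not named, and 9160 are unnamed here. Values were set to log2 and fitted with limma 3.58.1 (lmFit and eBayes, 2-sided, R 4.3.3) on the 8 skin arrays, with Benjamini-Hochberg adjustment over all 41549 probe sets tested. The test was tried on simulated data first. A gene was read from the tested probe set with the highest mean over 19 arrays, and 8506 genes had more than 1. Lists and figures used Python 3.11.15 with pandas 2.3.3, numpy 2.4.6 and matplotlib 3.10.9. Promoter windows are those of RefSeq on GRCm38.p6. Counting a match in any listed window of a gene was added after the data were seen.

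Members and the 53 gene lists, with 808 of 865 genes measured, were chosen with earlier results of these data known. Genes are named by a rule: the defining genes of each list, up to 4 called members with the largest change in each direction, called members that go against the side of their list, and the 10 called genes with the largest change each way whose arrays do not overlap. Named outside this rule, after their values were seen, are Adipoq, Ap1m2, Bmp4, Car3, Cdh3, Col4a5, Col4a6, Dlx3, Ebf1, Erbb2, Fgf7, Fzd4, Igf1r, Itga3, Itga6, Itgb4, Krt16, Lama5, Mitf, Rab25, Snai1, Snai2, Tjp1, Wnt2, Wnt3, Wnt11, Zeb2, Zfp36 and further genes of the signalling plot.

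The replicate numbers of the layers were checked as pairs. Over probe sets, deviations from the group mean correlated at 0.343, 0.108, 0.264 and 0.168 for replicates 1 to 4. All were over 0.1, so the number was used as a block, but in an alternative fit only. Fold changes, SE and calls come from the fit without the block unless the block is named. This check comes from the data and not from the labels, and it did not settle the pairing. Epidermis 2 and dermis 3 correlated more with each other, at 0.299, than with their own numbers. Dermis 4 correlated more with epidermis 3, at 0.184, than with epidermis 4. Alternatives were the methods' test per probe set without moderation, quantile normalization, a pseudocount of 50, other filters and thresholds, limma's treat, a fit of all 19 arrays, the replicate block, other probe sets per gene and leaving out arrays.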

Additional observations from a re-analysis of the deposited data

Results flagged for a closer look

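Single arrays lay far from the other 3 of their layer in 4 of 106 list medians and in 12 of 206 sets of 4 values of a gene. Chance flags about 1 in 20 groups, and both counts are near that share, so the flags are given as values only. The values here are log2 intensity, with the median of the other 3 arrays second. Dermis 1 was low for the median of the basement membrane list (9.92 against 10.46) and of the small leucine-rich proteoglycans (10.26 against 10.48). It was also low for Col4a1 (13.31 against 13.73), Col6a3 (13.40 against 13.93) and Nid1 (11.71 against 12.31). All 5 are dermal matrix values, and they are not separate, as Col4a1 and Nid1 are members of the basement membrane list. The cause was not tested.

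Epidermis 1 was high for Adipoq (9.63 against 3.63), for the erythroid gene Alas2 (8.53 against 6.99) and for Nfatc1 (7.52 against 7.26), and low for Elovl4 (11.69 against 12.48) and Mki67 (11.50 against 12.44). Adipoq had the largest gap of these. Epidermis 4 was low for the median of the dermal condensate list (5.73 against 6.18) and for Fbn2 (8.02 against 9.53), and high for the median of immediate early and heat shock genes (10.71 against 9.23). Dermis 4 was high for Fabp4 (11.35 against 10.53), dermis 2 was high for Lhx2 (6.76 against 6.33), and epidermis 2 was low for Jup (10.99 against 11.27).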

How the results depend on the processing

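Leaving out 1 array at a time gave 1994 to 3429 probe sets higher in epidermis and 2910 to 3329 higher in dermis, against 2524 and 3157. The count on the epidermal side was 1164 with the methods' t-test, 1467 with 50 added to each value and 138 with treat at a fold of 2, which gave 1296 on the dermal side. With 1 probe set per gene the counts were 1014 and 1927, with the probe set brightest over the 8 skin arrays 1020 and 1919, and with the median over a gene's probe sets 932 and 1591, where fewer features are counted. With the replicate number as a block, 2735 and 3169 probe sets were called. Of genes, 2926 were called in both fits, 15 without the block alone and 37 with it alone. Of 284 named genes that were called, 125 kept their call and direction in every alternative. Most losses came from treat (146) and the methods' t-test (78). Of 106 counts of list members called, 48 stayed within 1.5 times in every alternative. The methods' t-test also took Wnt genes called higher in epidermis from 5 to 2, Notch genes from 3 to 1 and adipocyte genes called higher in dermis from 4 to 2. Epcam (-0.98) changed sign on the probe set brightest over the skin arrays. Igfbp7 (0.23), Mbp (-0.79), Ngfr (0.11), Notch4 (0.035) and Sema4d (-0.0782) did so with the median over probe sets. With the UGM level taken off, basal genes in dermis 2 stood at 34.8% of epidermis. Cornified genes stood at 4.53%, 10.2% and 18.4% in dermis 2, 3 and 4, and periderm and stress keratins at 4.02%, 11.1% and 13.2% in dermis 2, 3 and 4. Tight junction genes stood at 28.7%, 0.198%, 10.9% and 9.42% in dermis 1 to 4, over the 12 genes kept, whose RNA UGM holds too. The causes were not tested. The signal minimum of 20 was a filter and not a floor, as the lowest intensity of the 8 arrays ranged from 7.90 to 8.69. Changes of genes near those values may be understated. Calls of dim genes also rest on small intensities, and 35 named genes lost their call with 50 added to each value.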
